A study of Rattus norvegicus with 24 samples.

Results

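The receptors of ovarian and adrenal steroids were followed on 24 expression arrays of female rat midbrain. They comprised 9 genes of the 14217 that the array annotation names through a probe set with 1 gene symbol. The nuclear receptors were Esr1 and Esr2 (estrogen receptors alpha and beta), Pgr (progesterone receptor), Nr3c1 (glucocorticoid receptor) and Nr3c2 (mineralocorticoid receptor). The membrane-associated members were Gper1 (a G protein-coupled estrogen receptor), Pgrmc1 and Pgrmc2 (progesterone receptor membrane components) and Paqr8 (a membrane progestin receptor). The 9 genes were chosen by name and not by a rule on their values, though earlier results of these data were known. Of 31099 probe sets, 15 carried their symbols. Pgrmc2 had 3 probe sets, Paqr8 had 4, Nr3c1 had 2, and every other member had 1. Probe sets of a gene are numbered here from the highest mean signal, and the first stands for the gene unless another is named.

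Nuclear steroid receptors are transcription factors that wait in complexes with chaperones until their hormone binds, after which they act on response elements in DNA together with coregulators. Membrane progestin receptors and the membrane components mediate or modify rapid actions of progestogens that do not need the classical progesterone receptor. In the rodent brain, estrogen induces Pgr in hypothalamic neurons that control lordosis, and in the ventral tegmental area, where few cells hold the classical receptor, progestogens are known to facilitate sexual receptivity through membrane and neurosteroid routes. The mineralocorticoid receptor is known for its high level in the hippocampus, whereas the glucocorticoid receptor is present in most brain cells.

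Adult Long-Evans females either paced their mating with a male (paced) or were placed alone in the clean mating chamber (chamber-exposed). The rats were gonadally intact and in proestrus, ovariectomized (OVX), or ovariectomized and adrenalectomized (OVX/ADX). The OVX and OVX/ADX rats, but not the intact rats, were primed with estradiol benzoate, so that no group lacked estrogen, and the ADX rats drank saline. The question was whether mating altered midbrain transcripts and whether ovaries and adrenals mattered for it.

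The arrays fell into 4 sets of 6, each with 3 paced and 3 chamber-exposed arrays. There were 2 intact sets, 1 titled with numbers (number-named) and 1 titled Intact-1 to Intact-6 (Intact-named), besides the OVX and the OVX/ADX set. The lowest signals per array were 3.58 to 3.65 on number-named arrays, 2.3 to 2.39 on Intact-named and OVX arrays, and 3.38 to 3.43 on OVX/ADX arrays. Thus 3 normalization runs were present, and gland groups could be tested only between Intact-named and OVX arrays. The titles of all Intact-named arrays begin with other numbers than those of all OVX arrays, and the labels do not say what these numbers mean. Gland and whatever these numbers stand for cannot be told apart. The labels do not say whether the 2 intact sets came from the same rats, and the study describes fewer intact rats than there are intact arrays, so that some rats may be represented on both sets. An array was counted as a sample, and p-values then measure the spread between these arrays, which may be technical in part. Regional markers differed between sets. The median of 9 markers of midbrain dopamine neurons lay at a median percentile of 88.7 on number-named and 85.2 on OVX/ADX arrays, but of 46.7 on Intact-named and 47.3 on OVX arrays. The 11 markers of cortex and hippocampus lay at 51.3 and 51.0 on the former sets and at 77.1 and 77.5 on the latter. The 8 markers of thalamus lay at 65.1 on Intact-named arrays, but at 82.5 on OVX, 87.3 on number-named and 86.6 on OVX/ADX arrays. Tissue described as grossly dissected midbrain thus did not carry the same regional markers in the 4 sets. This held for Intact-named against OVX arrays too. Signals of the 3′ and 5′ ends of beta-actin, a control for transcript and label integrity, differed by 1.06 ± 0.05 log2 units (mean ± SD, n = 6 arrays) on number-named, 1.02 ± 0.05 on OVX/ADX, 2.54 ± 0.62 on Intact-named and 1.96 ± 0.29 on OVX arrays.

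A promoter is shown for Pgr, because this receptor is the member best known as a target of estrogen and the intact and estradiol-primed OVX rats differ in ovarian hormones. The window runs from 250 bases before to 50 after the gene start in the RefSeq annotation of GRCr8, chr8:14354148-14354447, plus strand, and the capitals mark a GC box.
Pgr promoter: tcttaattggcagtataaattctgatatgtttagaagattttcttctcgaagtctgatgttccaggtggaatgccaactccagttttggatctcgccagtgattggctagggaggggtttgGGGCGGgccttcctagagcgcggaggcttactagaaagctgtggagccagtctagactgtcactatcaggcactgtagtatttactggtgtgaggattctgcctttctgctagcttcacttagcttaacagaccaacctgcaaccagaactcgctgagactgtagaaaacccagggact
The GC box (GGGCGG, either strand) occurred in 33.1% of 33469 promoter windows of the same length. The full estrogen response element (GGTCANNNTGACC) was found in 0.0269% of windows and the glucocorticoid response element (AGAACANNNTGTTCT) in 0.0149%. Neither was found on either strand of the 7 windows of Esr1, Esr2, Pgr, Nr3c1 (2 windows), Pgrmc1 and Pgrmc2.

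Positions are given as the percentile of a probe set among all non-control probe sets of its own array, which can be set side by side across the 3 runs. Because probes differ in affinity, percentiles order arrays for a gene and not genes against each other. Pgrmc1, a heme-binding protein, ranged from 96.9 to 99.1 over the 24 arrays. Pgrmc2, its close relative, ranged from 84.7 to 94.2, and Paqr8 from 92.6 to 97.1. The glucocorticoid receptor Nr3c1 ranged from 78.6 to 86.2. Gper1 ranged from 17.6 to 29.7. The position depended on the probe set, since Nr3c1 probe set 2 lay at 8.75 to 14.1 and Paqr8 probe set 4 at 17.0 to 23.9 on Intact-named and OVX arrays.

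Esr1 lay between the percentiles 7.09 and 21.3, and Esr2 between 3.36 and 10.1. Of the 15 probe sets, 13 (7 genes) reached the 20th percentile in at least 3 arrays and entered the tests. The estrogen receptors did not, and the tests therefore say nothing about them unless the filter is named as absent. Of 28 genes of other organs (such as digestive enzymes, taken as genes with little transcript in brain), 13 to 24 had a median percentile at or above that of Esr1 or Esr2 in a given set. For Gper1, 5 to 8 of the 28 did, and for Pgr 7 on Intact-named, 9 on OVX, 3 on OVX/ADX and 1 on number-named arrays. Because these are other probes, the counts describe how dim the signals were and give no limit on the receptors' levels.

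**Figure D1:**
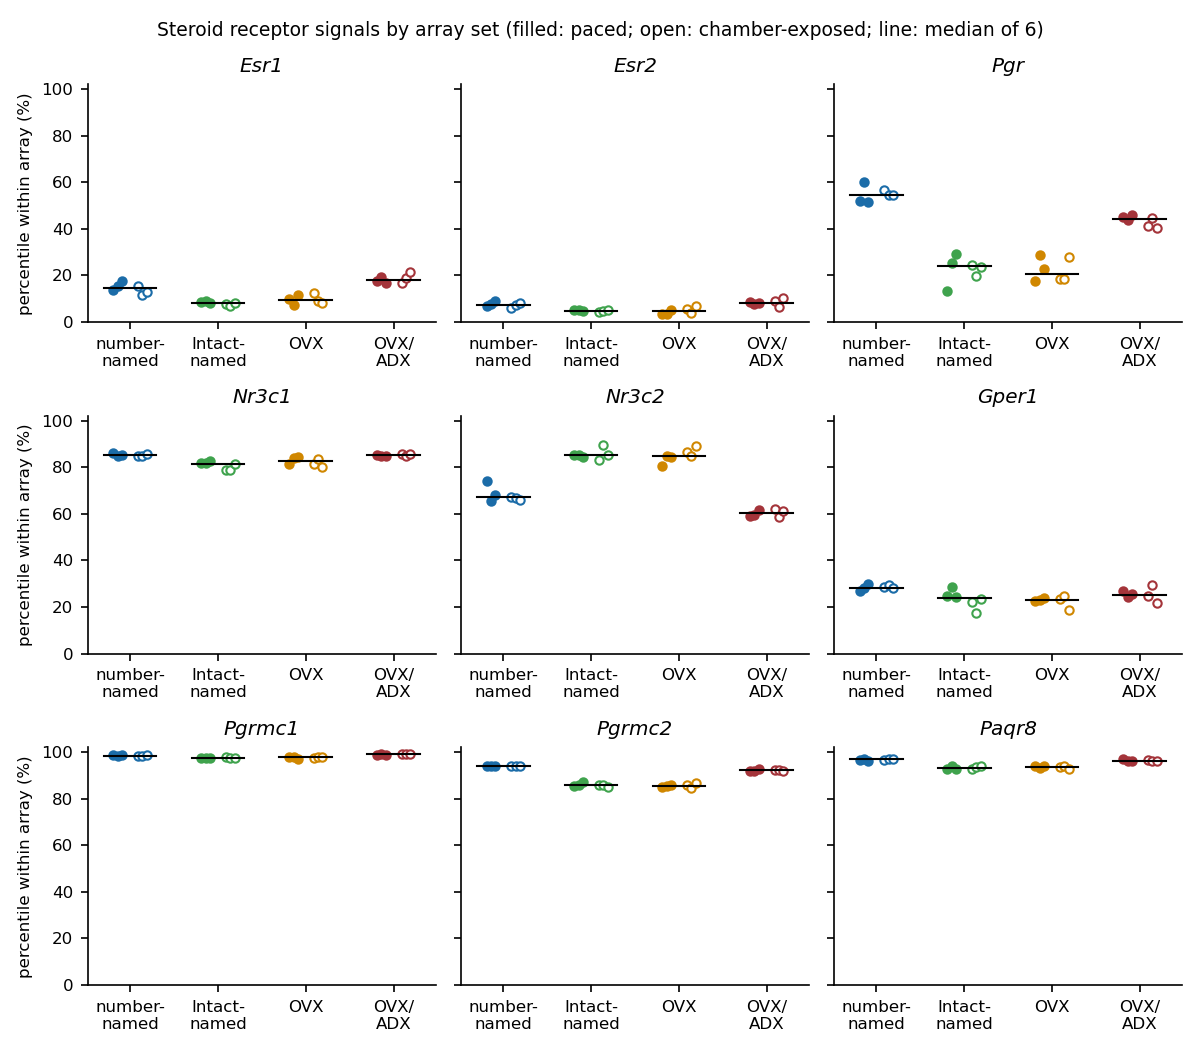
Percentile of each receptor's first probe set within its array (vertical axis, %), by array set (horizontal axis); filled points are paced and open points chamber-exposed arrays, 3 of each per set, and the line is the median of 6. Paced and chamber-exposed points lie together in most panels, and the Pgr and Nr3c2 panels hold the widest gaps between sets.

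Among the first probe sets, those of Pgr and Nr3c2 differed most between the intact sets, in opposite directions. Neither gene had another probe set. Some further probe sets of Paqr8, Pgrmc2 and Nr3c1, given below, differed by more than Nr3c2, and those of Paqr8 by more than Pgr. Pgr lay at a median percentile of 54.7 on number-named arrays (lowest 51.5, highest 60.1) and at 24.1 on Intact-named arrays (13.2 to 29.0), although both sets held proestrous rats. On OVX arrays it lay at 20.7 (17.4 to 28.9), and on OVX/ADX arrays at 44.1 (40.5 to 46.1). The ranges of the sets overlapped only between Intact-named and OVX arrays, which shared a normalization run. After quantile normalization of the 24 arrays together, the mean Pgr signal was 5.27 on Intact-named and 7.47 on number-named arrays, a difference of −2.2 log2 units, and OVX/ADX arrays differed from number-named arrays by −0.79.

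Nr3c2 lay at a median percentile of 67.1 on number-named arrays (65.6 to 74.0), 85.2 on Intact-named arrays (83.1 to 89.7), 84.8 on OVX arrays (80.4 to 89.0) and 60.4 on OVX/ADX arrays (58.6 to 61.9). It was thus higher on every Intact-named and OVX array than on any other array. The quantile-normalized difference was 1.33 log2 units between Intact-named and number-named arrays, above that of 94.0% of all tested probe sets. OVX/ADX arrays differed from number-named arrays by −0.52. The cortex and hippocampus markers had a median difference of 1.23 between the same intact sets, with 9 of 11 higher on every Intact-named array. Between OVX/ADX and number-named arrays, these markers had a median difference of −0.55. Beside the Pgr difference, several marker lists were lower on Intact-named arrays, with median differences of −2.82 for hypothalamus, where Pgr is known to be induced, −2.58 for anterior pituitary, −2.34 for midbrain dopamine neurons and −1.94 for thalamus. Between OVX/ADX and number-named arrays, where Pgr was lower as well, the hypothalamus markers had a median difference of 0.26 (10 of 11 higher), and those of the pituitary, dopamine neurons and thalamus −1.76, −0.44 and 0.31. The 3′ minus 5′ difference of beta-actin also differed between the intact sets, 2.54 on Intact-named and 1.06 on number-named arrays. The parts of the regional markers and of the beta-actin ends in the Pgr and Nr3c2 levels were not tested across sets. There, dissection, transcript integrity, run and array set cannot be told apart. In bulk tissue, fewer cells of a type and less RNA per cell cannot be told apart either.

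Of the 13 tested probe sets, 1 was higher and 11 were lower on every Intact-named than on every number-named array, where 33.2% of all tested probe sets were higher and 30.5% lower. Esr1 and Esr2, which did not pass the filter, differed by −0.52 and −0.25 log2 units and were lower without overlap as well. The members that were lower included all 4 probe sets of Paqr8 and all 3 of Pgrmc2. Between OVX/ADX and number-named arrays, 1 was higher (Pgrmc1, by 0.24) and 6 were lower, beside 23.4% and 21.6% of all tested probe sets. Between OVX and Intact-named arrays, all 13 overlapped, and 0.969% and 1.48% of all tested probe sets did not.

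**Figure D2:**
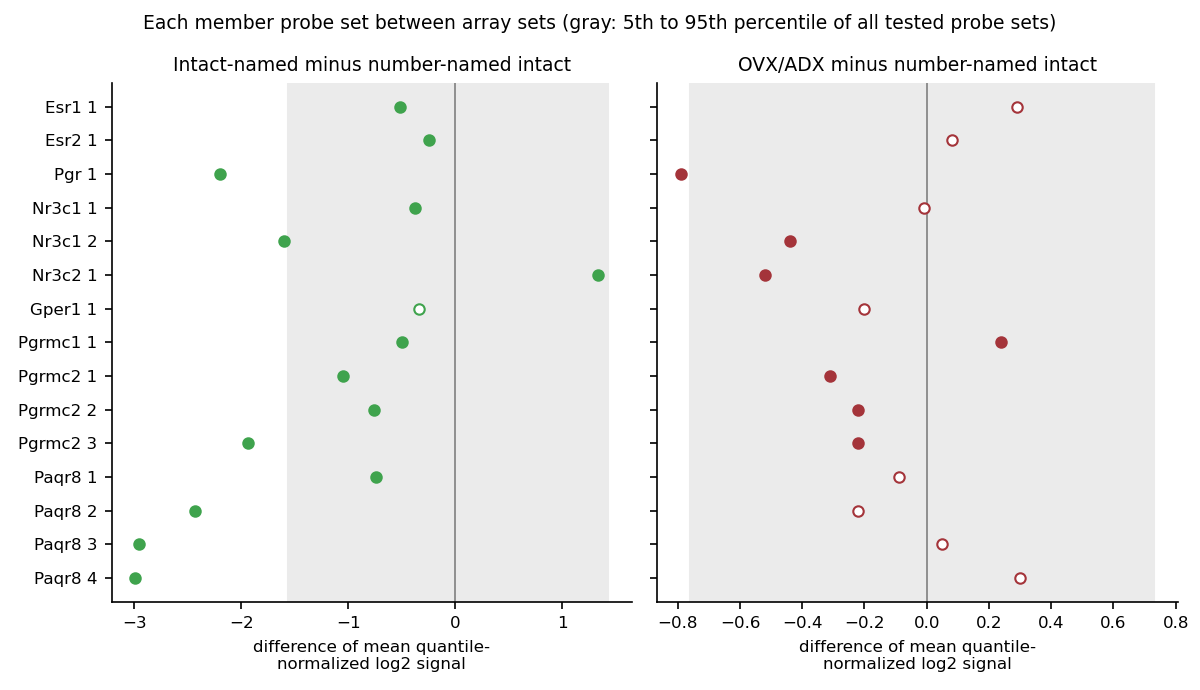
Difference of mean quantile-normalized log2 signal (horizontal axis) for each of the 15 probe sets, named by gene and probe set number, with Intact-named minus number-named arrays on the left and OVX/ADX minus number-named arrays on the right; filled points do not overlap in percentile, and the gray band holds the 5th to the 95th percentile of all tested probe sets. On the left, Paqr8 probe sets spread from −0.74 to −2.99, while no member on the right is below −0.79.

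Probe sets of the same gene disagreed in size. For Paqr8, the quantile-normalized difference between the intact sets was −0.74 for probe set 1, −2.43 for probe set 2, −2.96 for probe set 3 and −2.99 for probe set 4. The last of these differences was below that of all but 0.644% of tested probe sets. For Pgrmc2 the differences were −1.05, −0.76 and −1.94, and for Nr3c1 −0.38 and −1.60. A fold for these genes between the intact sets therefore depended on the probe set. Between OVX/ADX and number-named arrays, Paqr8 probe sets differed by −0.22 to 0.30.

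Inside the shared run, where arrays were normalized together, probe sets of Pgrmc2 and of Paqr8 also differed among themselves. On the 3 arrays with the highest 3′ minus 5′ difference of beta-actin, Intact-1 (3.40), Intact-3 (2.85) and Intact-2 (2.84), Pgrmc2 probe set 3 had its lowest log2 signals of the 12 arrays, 7.09, 7.43 and 7.77. On the array with the lowest difference, OVX-6 (1.5), it had its highest signal, 8.41. Paqr8 probe set 2 gave 7.54, 7.58 and 7.76 on the same 3 arrays and 8.56 on OVX-6, again the lowest and the highest of the 12.

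In a limma fit over the 12 arrays with gland and mating as terms, chosen after seeing the data, the slope of Pgrmc2 probe set 3 on the beta-actin difference was −0.64 log2 units per unit (SE 0.08, adjusted p = 0.00103), and that of Paqr8 probe set 2 was −0.55 (SE 0.08, adjusted p = 0.0018). These were 2 of 13 member probe sets called, where 6.11% of all tested probe sets were called. Probe set 1 of the same genes had slopes of −0.05 (SE 0.07, adjusted p = 0.674) for Pgrmc2 and −0.03 (SE 0.07, adjusted p = 0.834) for Paqr8. Some other probe sets of these genes and of Nr3c1 with large differences between the intact sets had smaller slopes that were not called. These were −0.22 for Paqr8 probe set 3 (adjusted p = 0.277) and −0.20 for Paqr8 probe set 4 (adjusted p = 0.224). For Nr3c1 probe set 2 the slope was −0.06 (adjusted p = 0.737), beside −0.04 for Nr3c1 probe set 1. On Intact-named and OVX arrays, Paqr8 probe set 3 lay at median percentiles of 35.8 and 37.3 and probe set 4 at 19.9 and 21.0. Nr3c1 probe set 2 lay at 12.2 and 11.5. Whether low signals flattened these slopes was not tested. Pgr, also dim on these arrays at 24.1 and 20.7, had the steeper slope given below. The part of the beta-actin ends in the differences between the intact sets was not tested. Within the Intact-named arrays alone the slopes of the 2 called probe sets were −0.69 and −0.57, and within the OVX arrays −0.63 and −0.58, with adjusted p-values of 0.0328, 0.0633, 0.158 and 0.0829 in that order. Pgr had a slope of −0.65 (SE 0.19) that was not called (adjusted p = 0.0662), but was without array Intact-2 (−0.79, adjusted p = 0.0199) or Intact-3 (−0.7, adjusted p = 0.0468). The count over all probe sets, 1651, was 320 without array Intact-5, 518 without Intact-1, 1034 without OVX-2 and 1080 without Intact-6, and the calls of the 2 member probe sets held without any single array. Where on the transcripts the probes lie was not examined.

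**Figure D3:**
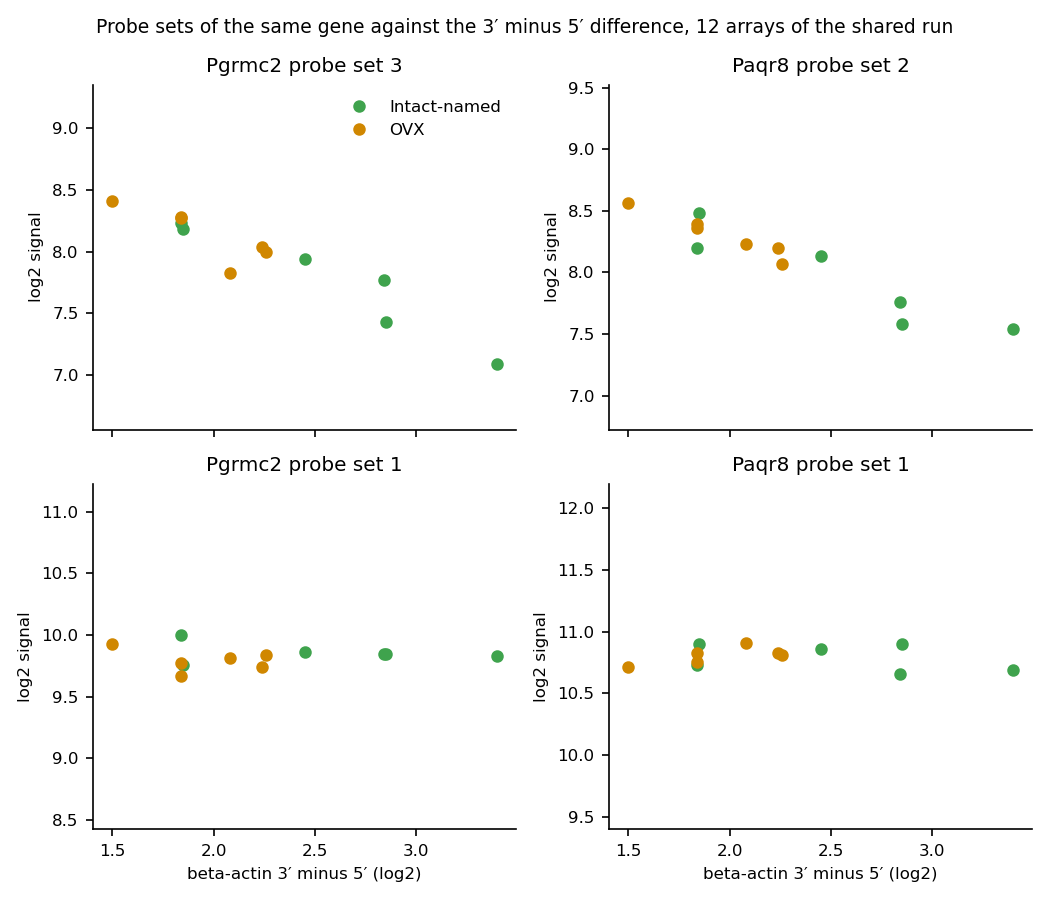
Log2 signal (vertical axis) of 2 probe sets each of Pgrmc2 and Paqr8 against the 3′ minus 5′ difference of beta-actin (horizontal axis, log2 units) on the 6 Intact-named and 6 OVX arrays; every panel spans the same range of signal. The upper panels slope by −0.64 and −0.55, and the lower ones, the first probe sets of the same genes, by −0.05 and −0.03.

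Ovariectomy with estradiol priming was not accompanied by a called difference in any receptor. In the limma fit of 6 Intact-named against 6 OVX arrays with mating as a term, 388 of 27032 probe sets (1.44%) had an adjusted p under 0.05, and 0 of the 13 member probe sets did. At an unadjusted p under 0.05 there was 1 of the 13, beside 21.0% of all tested probe sets. The plain test called 0 member probe sets, and 84 of the 27032. Differences are intact minus OVX. Pgr averaged 5.17 ± 0.46 on intact and 5.2 ± 0.37 on OVX arrays, a difference of −0.03 (95% interval −0.51 to 0.45, adjusted p = 0.953). Pgr was about as dim as Gper1 on these arrays, at median percentiles of 24.1 and 20.7, which limits what could be seen of it. Its interval was wide. With the beta-actin difference as a term, added after seeing the data, the Pgr difference was 0.35 (−0.07 to 0.78, adjusted p = 0.383). Nr3c1 differed by −0.09 (−0.23 to 0.05), Nr3c2 by 0.08 (−0.19 to 0.35) and Pgrmc1 by −0.03 (−0.19 to 0.14), so that their bounds stayed within 0.35 log2 units. For Gper1 the interval ran from −0.25 to 0.24. Thalamic markers were lower on intact arrays in this comparison (median difference −1.18, 8 of 8 at an unadjusted p under 0.05). Their part in the receptor differences was not tested.

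The largest differences in size among the members were those of the 2 probe sets that moved with the beta-actin ends. Paqr8 probe set 2 differed by −0.36 (−0.68 to −0.04, adjusted p = 0.197) and Pgrmc2 probe set 3 by −0.36 (SE 0.17, adjusted p = 0.241). With the beta-actin difference as a term, they differed by −0.04 (SE 0.08) and 0.01 (SE 0.08). That term itself differed between the sets (2.54 on Intact-named and 1.96 on OVX arrays). The values with it thus follow from the slopes above and are no separate result. The first probe sets of both genes differed by −0.02 (−0.15 to 0.12) and 0.06 (−0.07 to 0.19). Without the filter on low signals, Esr1 differed by −0.22 (−0.42 to −0.02, adjusted p = 0.224) and Esr2 by −0.01 (−0.18 to 0.16, adjusted p = 0.959).

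Paced mating was likewise without a called difference in any receptor. Directions follow the sample labels. For genes such as S100g and Fshb on intact arrays, the study's text describes the opposite direction. The sign of every mating difference on number-named arrays therefore rests on these labels. So do the size and sign of differences fitted over both intact sets or all arrays, and of the interaction with the intact set. In the 4 sets the mating comparison called 12 (0.0444%), 4 (0.0148%), 0 (0%) and 0 (0%) of 27032 probe sets on number-named, Intact-named, OVX and OVX/ADX arrays, and 0 when both intact sets or all 24 arrays were fitted with the set as a term. At an unadjusted p under 0.05, limma gave 2523, 2161, 654 and 667 probe sets in the 4 sets, 2086 in both intact sets and 1134 in all arrays. The plain test without moderated variances called 0 in each of these 6 fits. Among the members, 0 probe sets were called in any of these fits. The differences in all arrays ran from −0.15 to 0.10 log2 units, with standard errors of 0.03 to 0.13, paced minus chamber-exposed.

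The glucocorticoid receptor was the only member whose 95% interval of the mating difference left out 0, and it did so on Intact-named and not on number-named arrays. On Intact-named arrays the paced samples read 9.52, 9.50 and 9.53 and the chamber-exposed samples 9.23, 9.23 and 9.39, with no overlap. On number-named arrays the paced values were 9.89, 9.73 and 9.74 and the chamber-exposed values 9.72, 9.74 and 9.79, which overlapped. The difference was 0.23 (95% interval 0.02 to 0.44, adjusted p = 0.595) in the former and 0.04 (−0.11 to 0.19, adjusted p = 0.869) in the latter. Over both intact sets it was 0.14 (0.01 to 0.26, adjusted p = 0.621) and over all arrays 0.09 (0.01 to 0.18, adjusted p = 0.969). If rats were shared between the intact sets, these pooled intervals are too narrow. The difference between the intact sets was −0.19 (SE 0.10, adjusted p = 0.562), number-named minus Intact-named. Nr3c1 probe set 2, a far dimmer reading of the same gene, gave −0.15 on Intact-named arrays and 0.13 on number-named arrays, opposite in sign to each other, and neither was called.

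Paced and chamber-exposed arrays did not overlap for 2 of 13 member probe sets on Intact-named arrays (Nr3c1 and Gper1, paced higher), where 7.55% of all tested probe sets were higher and 6.36% lower without overlap. On number-named arrays this held for 1 (Nr3c1 probe set 2, paced higher), where 7.21% were higher and 8.16% lower. On OVX arrays it held for 1 (Nr3c2, paced lower), where 2.79% were higher and 3.5% lower. On OVX/ADX arrays it held for 0, where 2.69% were higher and 4.1% lower. No member did so in more than 1 set with the same probe set. Gper1 read 5.29, 5.61 and 5.32 on paced and 5.16, 4.76 and 5.28 on chamber-exposed Intact-named arrays, a difference of 0.34 (−0.03 to 0.72, adjusted p = 0.656). On the other 3 sets its difference was between −0.03 and 0.06. Nr3c2 read 9.33, 9.69 and 9.68 on paced and 9.89, 9.69 and 10.16 on chamber-exposed OVX arrays, a difference of −0.35 (−0.70 to 0.01). Its highest paced and lowest chamber-exposed signals both rounded to 9.69, so that they were apart by less than the rounding. On the other sets its difference was −0.10 (−0.51 to 0.31) on Intact-named, −0.04 (−0.22 to 0.14) on OVX/ADX and 0.16 (−0.16 to 0.48) on number-named arrays.

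**Figure D4:**
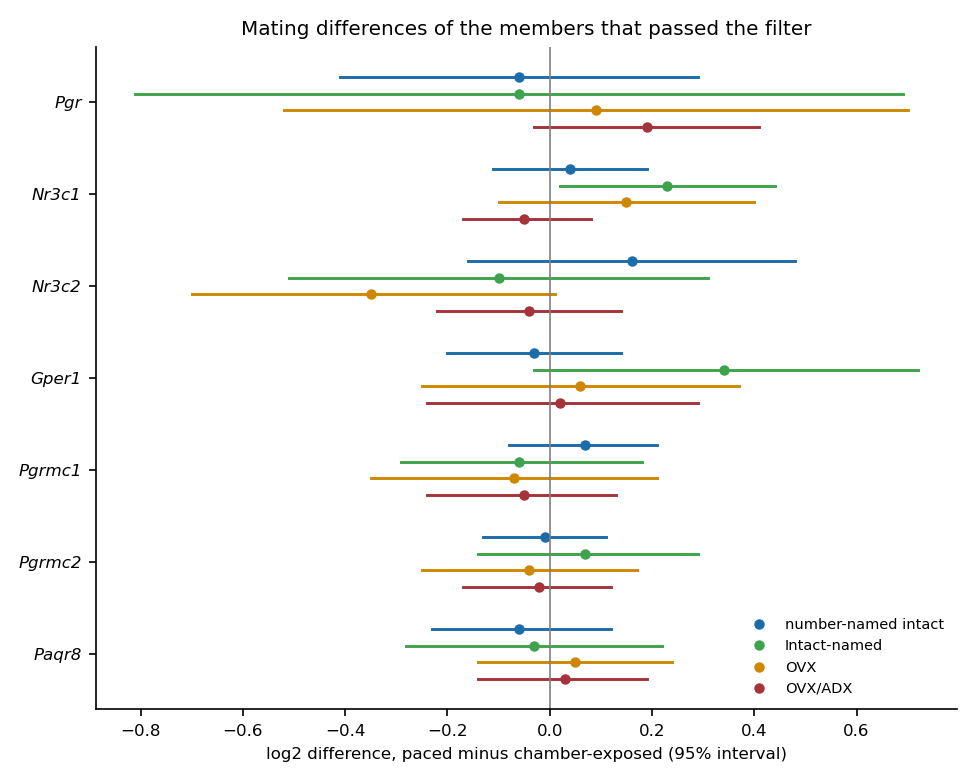
Log2 difference, paced minus chamber-exposed (horizontal axis), for the first probe set of the 7 receptors that passed the filter, in each of the 4 array sets (3 arrays against 3); points are limma estimates and lines their 95% intervals. Of the 28 intervals, only that of Nr3c1 on Intact-named arrays (0.02 to 0.44) leaves out 0.

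Pgr, the receptor through which progesterone acts on transcription, differed by −0.06 (−0.41 to 0.29) with mating on number-named, −0.06 (−0.81 to 0.69) on Intact-named, 0.09 (−0.52 to 0.70) on OVX and 0.19 (−0.03 to 0.41) on OVX/ADX arrays. On OVX/ADX arrays the interval of Gper1, −0.24 to 0.29, was wider than that of Pgr. Over all 24 arrays, Pgr differed by 0.04 (−0.22 to 0.30), and the membrane members had narrower intervals. There, Gper1 differed by 0.10 (−0.05 to 0.24) and Pgrmc1 by −0.03 (−0.12 to 0.06). Paqr8 had an interval of −0.08 to 0.08, and Pgrmc2 one of −0.07 to 0.07. Without the filter, Esr1 differed by 0.04 (−0.09 to 0.16) and Esr2 by −0.03 (−0.13 to 0.07).

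Neither interaction test called a member. Whether the mating difference depended on ovariectomy was called for 2 (0.0074%) of all tested probe sets and for 0 of 13 members, whose differences of differences ran from −0.28 to 0.28. Whether it depended on the intact set was called for 22 (0.0814%) and for 0 of 13, with values from −0.37 (Gper1) to 0.36 (Pgrmc2 probe set 3).

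Within sets, the mineralocorticoid receptor varied with markers of cortex and hippocampus on some arrays. Array 2543, a paced number-named array, read 8.94 for Nr3c2 where the other 5 of its set read 8.36 to 8.51, and its marker median was 8.20 against 7.38 to 7.49. On OVX arrays the lowest Nr3c2 signal (9.33, OVX-1) and the highest (10.16, OVX-6) went with the lowest and highest marker medians, 8.33 and 9.66. These medians were also the extremes of the shared run. The highest Nr3c2 signal of that run, 10.27 on Intact-4, went with a marker median of 9.19, inside these extremes. A limma slope over all 24 arrays with the set as a term, chosen after seeing the data, gave 0.41 log2 units of Nr3c2 per unit of the marker median (SE 0.12, adjusted p = 0.0673), which was not called, beside 2.54% of probe sets called. It was 0.33 (adjusted p = 0.221) without array 2543, 0.34 (adjusted p = 0.404) without OVX-1 and −0.17 (adjusted p = 0.636) within the OVX/ADX arrays, but was called without Intact-1, Intact-4, Intact-5, OVX-2 or 4123 (0.39 to 0.47, adjusted p = 0.0353 to 0.0457). The count over all probe sets, 686, was 165 without array 2543, 4 without OVX-1, 215 without OVX-6 and 1843 without Intact-1.

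**Figure D5:**
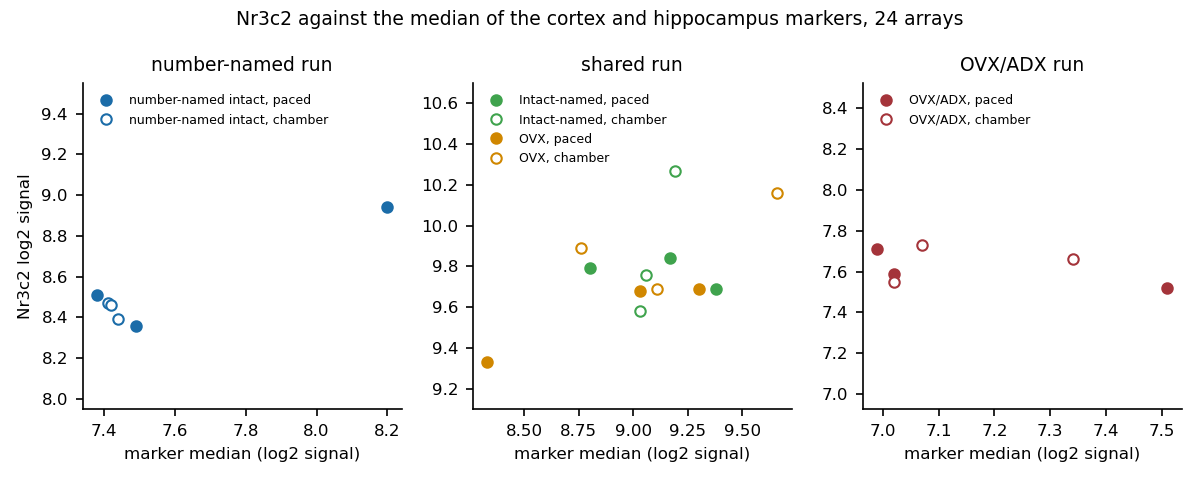
Log2 signal of Nr3c2 (vertical axis) against the median log2 signal of 11 cortex and hippocampus markers (horizontal axis), in 1 panel per normalization run; filled points are paced and open points chamber-exposed arrays. Array 2543 lies alone at 8.20 and 8.94 in the left panel, and the OVX/ADX arrays on the right show a slope of −0.17.

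Over the 24 arrays, with signals centred within each run, the genes most like each receptor were found by Pearson's r, as a description over arrays that share runs. Nr3c2 was most like Dock4, Arpc5 and Mas1 (r = 0.86 for each), and Nr3c1 most like Spock3 (0.87), Fjx1 (0.81) and Omg (0.80). Pgr was most like Mmp24 (0.83), Lyrm7 (0.82) and Spetex2l2 (0.79), and Pgrmc1 most like Adcyap1 (0.80), Ndn (0.77) and Pkib (0.76). Paqr8 reached 0.73 with Elovl2, which elongates polyunsaturated fatty acids, and Pgrmc2 0.76 with Seh1l, a nuclear pore component. Each of these 6 receptors was set against 13076 genes.

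Among the partners of the receptors, 2 of 14 tested chaperones (14.3%, beside 1.44% of all tested probe sets) rose on intact against OVX arrays and 0 fell, while the list's median difference was 0.01, beside 0.00 over all probe sets. These were Dnajb1, a heat shock protein 40 cochaperone, by 0.45 (10.34 ± 0.17 against 9.88 ± 0.10, SE 0.07, adjusted p = 0.02), and Fkbp5, a cochaperone of the glucocorticoid receptor that is itself induced by glucocorticoids, by 0.62 (9.20 ± 0.23 against 8.59 ± 0.27, SE 0.13, adjusted p = 0.0436). Fkbp5 was also the only called gene among 17 tested glucocorticoid targets (median difference 0.17), and 4 of them (23.5%) had an unadjusted p under 0.05, all higher, beside 21.0% of all tested probe sets in either direction. Both calls, and the whole count of 388, were lost without array OVX-4, which carried the highest median of midbrain dopamine markers in the shared run (percentile 70.0). Dnajb1 was also lost without Intact-2 (adjusted p = 0.0552), and Fkbp5 held only without Intact-5 or OVX-6. The count of 388 was 27 without Intact-2, 33 without Intact-3, 104 without Intact-1, 88 without OVX-1, 253 without OVX-2, 146 without OVX-3 and 137 without OVX-5. The differences without OVX-4 and Intact-1, 0.44 for Dnajb1 and 0.55 for Fkbp5, stayed close to those of all arrays, with adjusted p-values of 0.111 and 0.178. Thalamic markers moved with the same comparison, 8 of 8 lower on intact arrays at an unadjusted p under 0.05 and 1 of them called (Slc17a6, −1.69, SE 0.35, adjusted p = 0.0394), and their part in the chaperone differences was not tested.

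Other lists held 0 called genes in this comparison. They were 18 coregulators (median 0.06, 5 of 18 or 27.8% higher at an unadjusted p under 0.05 beside that 21.0%, with Carm1, a histone methyltransferase, at 0.28 and an adjusted p of 0.0709), 13 estrogen targets (median −0.02, with Ctsd, a lysosomal protease, at −0.22 and an adjusted p of 0.0893), 12 other steroid receptors and relatives (median −0.08) and 10 enzymes that activate or inactivate steroids (median −0.05, with H6pd, which supplies cofactor to the glucocorticoid-activating enzyme, at −0.34 and an adjusted p of 0.0652). With mating on number-named arrays, 1 of 13 estrogen targets fell (S100g, a calcium-binding protein, 5.72, 7.08 and 6.09 on paced against 10.67, 9.82 and 10.14 on chamber-exposed arrays, adjusted p = 0.0414), and 0 of 17 glucocorticoid targets were called. At an unadjusted p under 0.05, 6 of the 13 estrogen targets (46.2%) and 8 of the 17 glucocorticoid targets (47.1%) were lower. Beside these, 9.33% of all tested probe sets reached that p in either direction. All 10 anterior pituitary genes were lower on the paced arrays of that set at an unadjusted p under 0.05, with a median difference of −2.18 and 1 of them called (Fshb, the beta subunit of follicle-stimulating hormone, by −2.2, adjusted p = 0.00308), and their part in the S100g difference was not tested.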

How the data were processed

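RNA of 24 rat tissue samples was measured on Affymetrix rat expression arrays, 1 array per sample. The deposited values are log2 signals, which the authors made with RMA (background correction, quantile normalization and summary of probes); the submitters' processing notes give Affymetrix Expression Console, version 1.4. Where the study's methods describe GCRMA in GeneSpring, values of that kind were not analysed here. RMA makes arrays comparable only within a run, so gland groups were tested in the shared run alone.

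Probe sets were named through GEO's platform annotation, in which 20832 of 31099 had 1 symbol, 436 had several and 9831 had none; 57 controls were left out. Receptors were represented by the probe set with the highest mean signal, and every other one was reported too. Of the gene lists, called genes and the 4 with the smallest p in intact against OVX were eligible to be named. S100g and Fshb were named after their values were seen. Members and lists were chosen with earlier results of these data known.

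The filter kept 27032 probe sets that reached the 20th percentile in 3 or more arrays, and these were tested with limma 3.58.1 in R 4.3.3, with Benjamini-Hochberg adjustment over all of them, a threshold of 0.05 and 95% intervals. Mating was tested in each set, over both intact sets and over all arrays with the set as a term, and intact against OVX with mating as a term. The fits were tested on simulated data. Alternatives were no filter, a filter at the 50th percentile, quantile normalization of all 24 arrays, subtracted array medians, a trended robust prior, a plain test, a replicate block, no mating term and leaving out each array. The slope fits, the beta-actin term and the fit without arrays Intact-1 and OVX-4 were added after seeing the data. Precision is limited by 3 arrays per mating label and set. Promoter sequences are from RefSeq (GRCr8), where 6 of 9 members had a window.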

Additional observations from a re-analysis of the deposited data

Results flagged for a closer look

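In 3 of 60 groups of 6 arrays, 1 for each probe set and array set, a single array lay apart from the other 5 by Dixon's criterion, about the 1 in 20 that chance gives. Nr3c2 read 8.94 on the paced number-named array 2543, where the others read 8.36 to 8.51, and 10.27 on the chamber-exposed array Intact-4, where the others read 9.58 to 9.84. Nr3c1 probe set 2 read 5.35 on the paced OVX/ADX array 4123, where the others read 5.51 to 5.57. On array 2543 the cortex and hippocampus markers were high as well (median 8.2), whereas on Intact-4 their median, 9.19, lay within the range of its set, 8.8 to 9.38.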

How the results depend on the processing

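Over the 9 planned comparisons, 1984 values of member probe sets under alternatives were computed. Of these, 147 changed sign, and 0 changed their side of the threshold. The replicate block, in which Intact and OVX arrays of the same number were matched, left 0 member genes called, with 375 probe sets in all against 388; no source says that these numbers pair rats. In the slope on the beta-actin difference, 1 member gene was called within the Intact-named and 0 within the OVX arrays, against 2 over both, and 2 to 3 when 1 array was left out. In the slope on the cortex and hippocampus markers, 1 member gene (Nr3c2) was called with array medians subtracted, and 0 to 1 when 1 array was left out. The cause was not tested.

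Counts over all probe sets were less stable. Intact against OVX gave 84 in the plain test, 68 with the beta-actin term, 0 without arrays Intact-1 and OVX-4, and 0 to 443 when 1 array was left out. Fkbp5 was not called with the replicate block (adjusted p = 0.0599), quantile normalization (0.0525), the plain test (0.0912) or the beta-actin term (0.111), and Dnajb1 not with that term (0.0554). Mating on number-named arrays gave 5 with the filter at the 50th percentile, 4 with quantile normalization, 19 with array medians subtracted, 18 with a trended robust prior and 0 in the plain test, and leaving out any 1 array moved the 12 to between 2 and 57. On Intact-named arrays the 4 became 0 in the plain test and 1 to 15 when 1 array was left out. The interaction with the intact set, 22, became 33 with quantile normalization, 43 with array medians subtracted, 4 in the plain test and 9 to 345 when 1 array was left out, and that with ovariectomy, 2, became 1 and 1 to 9. Dim signals of Esr1, Esr2 and Gper1, and of Pgr on Intact-named and OVX arrays, limit what could be seen of them.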
